A study of Sus scrofa with 6 samples.

Results

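Chaperones of the endoplasmic reticulum (ER) and genes of the unfolded protein response (UPR) were examined in porcine granulosa cells (GCs), the somatic cells that surround the oocyte. The members were a fixed set of 10 genes, looked up by Ensembl gene name in the deposited table of 17950 genes. In total, 7 were found, namely *HSPA5*, *HSP90B1*, *CALR*, *CANX*, *XBP1*, *ATF6* and *EIF2AK3*. The other 3, *ATF4*, *DDIT3* and *ERN1*, had no row under their names and were not analysed here. All 7 passed the filter on low values, a mean of at least 1 FPKM over both groups, as did 12382 genes in all.

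The GCs were aspirated from follicles of pre-pubertal Landrace gilts and infected in culture for 72 h with lentivirus. The pLVX-*RBP4* group received a vector with porcine *RBP4* and ZsGreen, and the CTRL group received the same vector with ZsGreen alone, so both groups carried a lentivirus and a fluorescent protein. Each group had 3 libraries, but the deposited table gives 1 FPKM value (fragments scaled to transcript length and to the mapped fragments) per gene and group. The spread between libraries is therefore unknown, no test was possible, and every value given here is a group value of the authors, without an error.

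The ER is where secreted and membrane proteins are folded. Calnexin and calreticulin hold newly made glycoproteins, while BiP (encoded by *HSPA5*) and GRP94 (encoded by *HSP90B1*) hold other unfolded chains. When unfolded proteins build up, the sensors PERK (encoded by *EIF2AK3*), ATF6 and IRE1 (encoded by *ERN1*) are activated, and the factors ATF4, cleaved ATF6 and spliced XBP1 then raise the transcription of chaperones, folding enzymes and degradation factors. GCs secrete inhibins and other glycoproteins, and RBP4 itself is a secreted protein that folds in the ER. Gene-level values do not show splicing of *XBP1*, cleavage of ATF6 or phosphorylation of PERK.

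*RBP4* had 1.10 FPKM in CTRL and 92.3 FPKM in pLVX-*RBP4* cells, which includes transcripts of the vector. Among markers of GCs, *CYP11A1*, a steroidogenic enzyme, had 672.9 and 669.4 FPKM, and *FSHR*, the receptor of follicle-stimulating hormone, had 9.99 and 8.47 FPKM. *NR5A1*, *INHA* and *GATA4* were also lower as deposited, with 31.1 and 28.1, 28.6 and 27.5, and 59.2 and 57.8 FPKM. *FST*, *CDH2* and *AMHR2* were higher, with 20.5 and 24.7, 398.5 and 412.3, and 1.22 and 1.25 FPKM. *FOXL2*, *CYP19A1* and *AMH* were not found by name. Of the 8 GC markers found, 3 were higher in pLVX-*RBP4* cells, or between 1 and 6 under other scalings, against 50.2% of all genes as deposited. Markers of stroma were found as well, most of all *ACTA2*, with 644.1 and 687.8 FPKM, and *COL3A1*, with 525.1 and 611.2 FPKM. *DCN* had 168.6 and 210.1 FPKM, whereas *LUM* had 6.82 and 9.10 FPKM. *PDGFRA* went the other way as deposited, with 12.6 and 11.2 FPKM. The summed level of the list was 1418.7 FPKM in CTRL and 1600.5 FPKM in pLVX-*RBP4* cells. Of its 6 genes found, 5 were higher, or 4 under one scaling, against 50.2% of all genes as deposited. The theca markers *LHCGR* and *INSL3* were below 1 FPKM in both groups, with *INSL3* listed at 0 in the CTRL group. Of other cell types, the endothelial *PECAM1* had 16.3 and 16.0 FPKM, the leukocyte gene *PTPRC* 0.229 and 0.166 FPKM, the monocyte gene *CD14* 42.9 and 48.9 FPKM, and the oocyte gene *GDF9* 3.36 and 3.51 FPKM. The part of stromal cells in the values below was not tested, and in bulk RNA a change in the share of a cell type and a change in RNA per cell cannot be told apart.

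The 4 chaperones among the members were among the abundant transcripts of the GCs, and the sensors were far lower. *CALR*, the calcium-binding lectin chaperone of the ER lumen, had the highest level, with 1300.0 FPKM in CTRL and 1246.5 FPKM in pLVX-*RBP4* cells, rank 76 and rank 93 of all genes. *HSPA5*, the HSP70 of the ER and the main repressor of the sensors, had 656.5 and 744.9 FPKM, rank 158 and rank 154. *HSP90B1*, the HSP90 of the ER, followed with 340.6 and 380.0 FPKM, rank 292 and rank 278.

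*CANX*, the membrane-bound relative of calreticulin, had 181.7 FPKM in CTRL and 175.1 FPKM in pLVX-*RBP4* cells. *XBP1*, the transcription factor whose mRNA is spliced by IRE1, had 140.5 and 145.2 FPKM, close to *CANX*. Below these came the 2 sensors found. *ATF6*, the membrane-bound precursor of a transcription factor, had 29.97 and 29.98 FPKM, and *EIF2AK3*, the kinase that phosphorylates eIF2, had 13.5 and 12.6 FPKM. The order of the 7 levels was identical in both groups. Whether neighbours such as *CANX* and *XBP1* differ beyond the spread of the libraries cannot be said from 1 value per group.

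**Figure D1:**
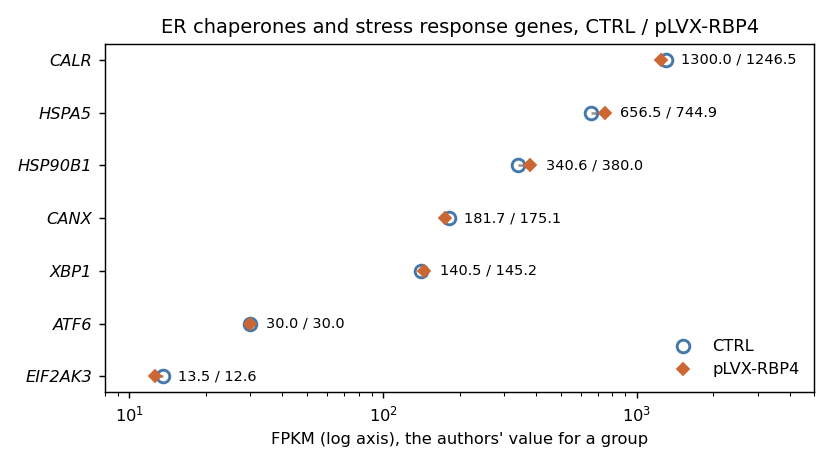
Level of the 7 members in the CTRL group (open circles) and the pLVX-*RBP4* group (diamonds), as the authors' FPKM value for each group on a log axis. The levels run from 12.6 FPKM for *EIF2AK3* to 1300.0 FPKM for *CALR*, and the 2 symbols of each gene lie close together.

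Differences between the groups were taken on the log2(FPKM + 1) scale, as pLVX-*RBP4* minus CTRL. *HSPA5* and *HSP90B1* had the highest differences among the members, 0.18 and 0.16, which correspond to 1.13-fold and 1.12-fold higher levels in the pLVX-*RBP4* group. Both kept this direction under each of the 4 scalings tried, at 0.063 or above for *HSPA5* and 0.039 or above for *HSP90B1*. *XBP1* was 1.03-fold higher, a difference of 0.047 that turned to -0.071 under one scaling, and *ATF6* differed by 0.00033, a value whose sign also depended on the scaling.

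The lectin chaperones lay on the other side of 0. *CALR* differed by -0.061 and *CANX* by -0.053, with pLVX-*RBP4* to CTRL ratios of 0.959 and 0.964, and both signs turned when the values were rescaled to a common sum. *EIF2AK3* had the lowest difference, -0.097 with a ratio of 0.930, and it was below 0 under each scaling.

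No member reached a difference of 0.25, about 1.2-fold, in either direction. Among the 12382 genes, 12.2% were higher by at least 0.25 and 9.58% lower by at least 0.25, and among the 6902 genes with a mean of at least 10 FPKM, where all members lie, the shares were 12.2% and 6.35%. With 7 members, a count of 0 is close to these shares. Larger absolute differences than that of *HSPA5* were found in 35.0% of the genes, and larger ones than that of *ATF6* in 99.9%. The median of the members was 0.00033, beside 0.0014 over all genes. In total, 4 of the 7 members were higher, against 50.2% of all genes and 53.5% of those with a mean of at least 10 FPKM. Under other scalings from 2 to 6 members were higher, while the share of all genes moved along, from 30.1% to 64.9%.

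The level of a gene bears on this reading. Among the 1092 genes with a mean of at least 100 FPKM, 67.1% were higher in pLVX-*RBP4* cells, the median difference was 0.084, 17.9% were higher by at least 0.25 and 2.75% lower by at least 0.25. Within this band lie *HSPA5*, *HSP90B1*, *CALR*, *CANX* and *XBP1*. The interquartile range of its differences ran from -0.040 to 0.21, so *HSPA5*, *HSP90B1* and *XBP1* were inside that range, and *CALR* and *CANX* were just below it.

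**Figure D2:**
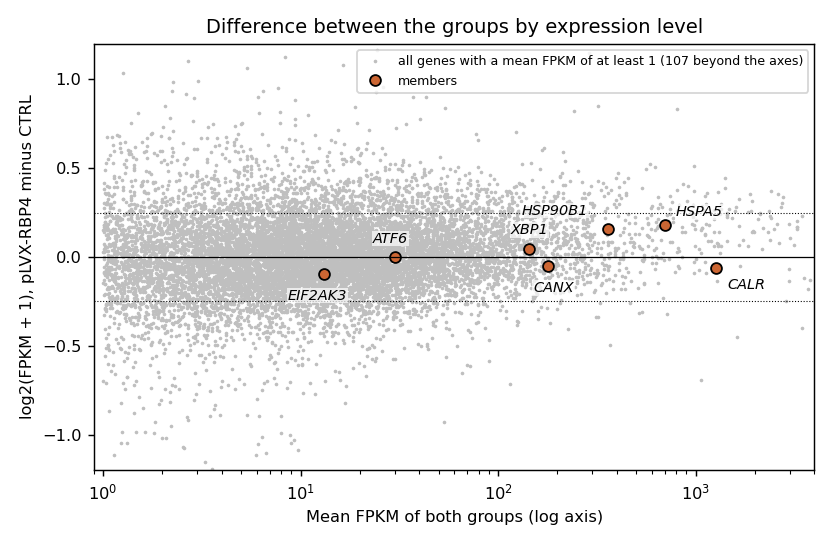
Difference between the groups (pLVX-*RBP4* minus CTRL, log2(FPKM + 1)) against the mean FPKM of both groups on a log axis, with all genes in grey and the 7 members as filled circles, and dotted lines mark a difference of 0.25 on either side of 0. Each member lies between the dotted lines, from -0.097 for *EIF2AK3* to 0.18 for *HSPA5*.

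The sum over the whole table depends in large part on a single gene without a name, ENSSSCG00000025162. It had 399775 FPKM in CTRL and 276137 FPKM in pLVX-*RBP4* cells. The deposited medians were close, and scaling to a common median multiplied the pLVX-*RBP4* values by 1.002. Rescaling all genes to a common sum multiplied the pLVX-*RBP4* values by 1.06, and doing so without this gene multiplied them by 0.921, which moved the median of all genes by -0.11. Under the common sum, *HSPA5* reached 0.26 and 6 of 7 members were higher, beside 64.9% of all genes. Without this gene, *HSPA5* and *HSP90B1* were the only members higher, beside 30.1% of all genes.

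**Figure D3:**
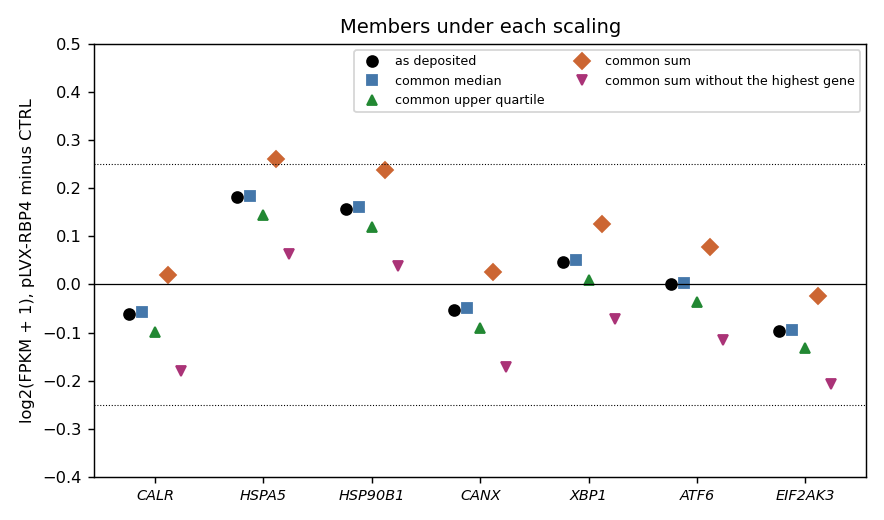
Difference of each member (pLVX-*RBP4* minus CTRL, log2(FPKM + 1)) as deposited and under the 4 scalings, with dotted lines 0.25 above and below 0. *HSPA5* and *HSP90B1* are above 0 and *EIF2AK3* is below 0 under every one, while *CALR*, *CANX*, *XBP1* and *ATF6* cross 0.

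Ratios between members within a group do not depend on the scaling. The level of *CALR* was 1.98 times that of *HSPA5* in the CTRL group and 1.67 times in the pLVX-*RBP4* group, a log2 change of -0.24. In contrast, the ratio of *CALR* to *CANX* was 7.16 and 7.12, and that of *HSPA5* to *HSP90B1* was 1.93 and 1.96. The ratio of *HSPA5* to *CANX* went from 3.61 to 4.25, and that of the sensors, *ATF6* to *EIF2AK3*, from 2.21 to 2.38. Of the 21 pairs of members, 2 changed in ratio by at least 0.25 on the log2 scale, both with *EIF2AK3*. These were its pairs with *HSPA5* (0.29) and *HSP90B1* (0.26). The ratio of *HSPA5* to *HSP90B1* changed by only 0.024, so these 2 pairs are not separate results. The share of pairs among all genes that change as much was not computed.

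Genes that work with the members were taken from a list of 39 other ER chaperones and folding enzymes, of which 30 were found. In total, 21 of these were higher in pLVX-*RBP4* cells, or 15 to 26 under other scalings, against 50.2% of all genes as deposited. The median difference was 0.11, beside 0.0014 over all genes and 0.084 over those with a mean of at least 100 FPKM, and it was -0.0078 when the sum was equalised without the highest gene. Differences of at least 0.25 were found upward in 5 genes and downward in 1, against 12.2% and 9.58% of all genes. Other scalings gave 3 to 10 upward and 1 to 2 downward. Over all genes, the same scalings gave 685 to 2394 upward and 684 to 2634 downward. On the log2(FPKM + 1) scale as deposited, none reached 0.5 in either direction, while 2.21% of all genes did upward and 1.84% downward. The highest difference was that of *FKBP7*, a prolyl isomerase of the ER, with 34.9 and 49.7 FPKM (0.497). Without the added 1 it was 0.509, and the limit of 0.5 was not counted under other scalings.

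BiP works with co-chaperones that carry a J domain, and all 6 on the list were found. *DNAJC1* had 17.1 FPKM in CTRL and 21.3 FPKM in pLVX-*RBP4* cells, a difference of 0.31. *DNAJB11*, *DNAJC10*, *SEC63* and *DNAJB9* were higher by 0.22, 0.19, 0.12 and 0.094 as deposited, and *DNAJC3*, the inhibitor of PERK also called p58IPK, was at -0.0057. *HSPA5* itself, at 0.18, lay inside this range. The nucleotide exchange factors of BiP lay on both sides, with *SIL1* at 0.17 and *HYOU1*, a large HSP70 relative, at -0.085. The level of *HSPA5* was accordingly 5.65 times that of *HYOU1* in the CTRL group and 6.81 times in the pLVX-*RBP4* group.

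In the lectin cycle, UGGT adds glucose back to misfolded glycoproteins so that calnexin and calreticulin bind them again, and PDIA3 forms their disulphide bonds. *PDIA3* was nearly as abundant as *CALR*, with 1265.4 and 1330.8 FPKM and a difference of 0.073. *UGGT1* differed by -0.054 and *UGGT2* by 0.12. Of the 5 genes of this cycle, 2 were higher and 3 lower, and their summed level was 2772.4 and 2778.1 FPKM. For the 6 disulphide isomerase relatives on the list, the sum was 2231.8 and 2383.5 FPKM. *PDIA6* contributed 605.6 and 677.6 FPKM (0.16), *PDIA4* differed by -0.038, and *ERP29*, a relative without the redox activity, had 62.2 and 82.9 FPKM (0.41).

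The enzymes that supply oxidising power went in opposite directions. *PRDX4*, a peroxiredoxin of the ER that uses hydrogen peroxide, had 273.5 and 368.5 FPKM, a difference of 0.43. *ERO1A*, the oxidase of disulphide isomerases, had 94.3 and 84.7 FPKM (-0.15), and its weakly expressed relative *ERO1B* had 3.24 and 2.38 FPKM (-0.33), the only gene of the list that was lower by at least 0.25.

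Some genes known as targets of ATF6 and XBP1 were also compared, a group that was not a list set in advance. They were chosen after their values were seen and do not cover all known targets, so no count is given. As deposited, the genes named here did not move in a single direction. The signs of small differences among them depend on the scaling. The common sum shifts log2 values by about 0.08, and the sum without the highest gene by about -0.12. *HSPA5*, *HSP90B1*, *PDIA6*, *DNAJB11* and *DNAJB9* were higher as deposited, whereas *HYOU1*, *PDIA4* and *DNAJC3* were lower. *CRELD2*, a secreted ER stress protein, had 45.3 FPKM in CTRL and 42.5 FPKM in pLVX-*RBP4* cells (-0.089), and *SEL1L*, the partner of the ubiquitin ligase HRD1, differed by -0.0041. *SELENOS*, a selenoprotein of the retrotranslocation machinery, was at the upper end, with 253.9 and 326.9 FPKM (0.36). Without a spread between libraries, none of these values can be set against an error.

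ER-associated degradation returns misfolded proteins to the cytosol. Of 30 genes listed, 19 were found, with a median difference of 0.064. Of these, 11 were higher in pLVX-*RBP4* cells, or 7 to 17 under other scalings, against 50.2% of all genes as deposited. After *SELENOS*, the largest increases were those of *EDEM2*, a mannosidase-like factor that marks glycoproteins for degradation (0.20), and *RNF5*, a ubiquitin ligase (0.18). *NPLOC4*, a cofactor of the VCP segregase, had the lowest value, with 73.6 and 66.3 FPKM (-0.15), followed by the ligase *MARCHF6* (-0.11) and *EDEM3* (-0.073). *VCP*, the ATPase that pulls proteins out of the membrane, had 154.9 and 153.6 FPKM. In total, 1 gene of this list was higher by at least 0.25 and 0 were lower by that much, against 12.2% and 9.58% of all genes. Other scalings gave 0 to 3 and 0 to 1, and moved the counts over all genes as well.

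*ATF4* and *DDIT3*, which encodes CHOP, were not found, but 19 of 30 genes listed as their targets were. In total, 11 were higher, or 4 to 16 under other scalings, against 50.2% of all genes as deposited. The median difference was 0.042. The 3 enzymes of serine synthesis were all higher, with *PSAT1* at 208.7 and 253.5 FPKM (0.28), *PHGDH* at 128.5 and 154.7 FPKM (0.27) and *PSPH* at 46.1 and 52.7 FPKM (0.19). *CEBPG*, a partner of ATF4 in transcription, had 21.2 and 25.8 FPKM (0.27). *PSAT1*, *PHGDH* and *CEBPG* were the 3 of 19 genes higher by at least 0.25, against 12.2% of all genes, and after upper quartile scaling none of the list reached 0.25.

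The other genes of this list ran from -0.15 to 0.11. *MTHFD2*, a mitochondrial enzyme of folate metabolism, and *BBC3*, which encodes the pro-apoptotic PUMA, were each at 0.11, and *SLC3A2*, *ATF5* and *CTH* were at 0.074, 0.067 and 0.063. *ATF3*, an early stress factor, had 68.7 and 61.6 FPKM (-0.15). *PPP1R15A*, the phosphatase subunit GADD34 that reverses eIF2 phosphorylation, had 96.3 and 95.4 FPKM (-0.013), and *ASNS*, asparagine synthetase, had 169.3 and 167.5 FPKM (-0.015). *VEGFA*, an angiogenic growth factor and the most abundant gene of the list, had 398.2 and 362.7 FPKM (-0.13), and *CARS1*, a tRNA synthetase, differed by -0.094. None of the 19 genes was lower by at least 0.25 as deposited, against 9.58% of all genes.

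Regulators of the sensors formed the last list, with 20 of 27 found and 19 of them above the filter. In total, 9 were higher, against 50.2% of all genes, and the median difference was -0.0066. Other scalings gave 3 to 12 genes higher, and 30.1% to 64.9% of all genes. By at least 0.25, 1 gene was higher and 0 were lower, against 12.2% and 9.58% of all genes. Other scalings gave 1 to 2 and 0 to 3. With 0.1, 0.01 or nothing added to the FPKM in place of 1, the counts were 1 and 1, and those over all genes rose as well. PERK is one of the kinases of eIF2, and the others found were also at or below 0 as deposited, with *EIF2AK1* at -0.0066 and *EIF2AK2*, the kinase activated by double-stranded RNA, at 7.66 and 6.75 FPKM (-0.16). Of the subunits of eIF2B, which phosphorylated eIF2 inhibits, *EIF2B4* and *EIF2B2* were higher by 0.22 and 0.16, *EIF2B3* was at 0.013 and *EIF2B5* at -0.082.

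Close to *ATF6* in kind were other membrane-bound factors released by proteolysis. *ATF6B* had 70.3 and 70.6 FPKM (0.0060) and was more abundant than *ATF6*. *CREB3L1* was the most abundant of them, with 176.2 and 165.2 FPKM (-0.092), *CREB3L2* had 41.3 and 37.0 FPKM (-0.15), and *CREB3* had 74.6 and 80.3 FPKM (0.10). *MBTPS1*, the site-1 protease that cleaves these factors, had 36.29 and 36.31 FPKM. *NFYB*, a subunit of the CCAAT-binding factor that acts with ATF6 on chaperone promoters, had 8.47 and 11.3 FPKM (0.38), the largest increase of the list. *MAP3K5*, the kinase ASK1 downstream of IRE1, was near the filter, with 1.26 and 0.924 FPKM (-0.23, or -0.44 without the added 1).

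**Figure D4:**
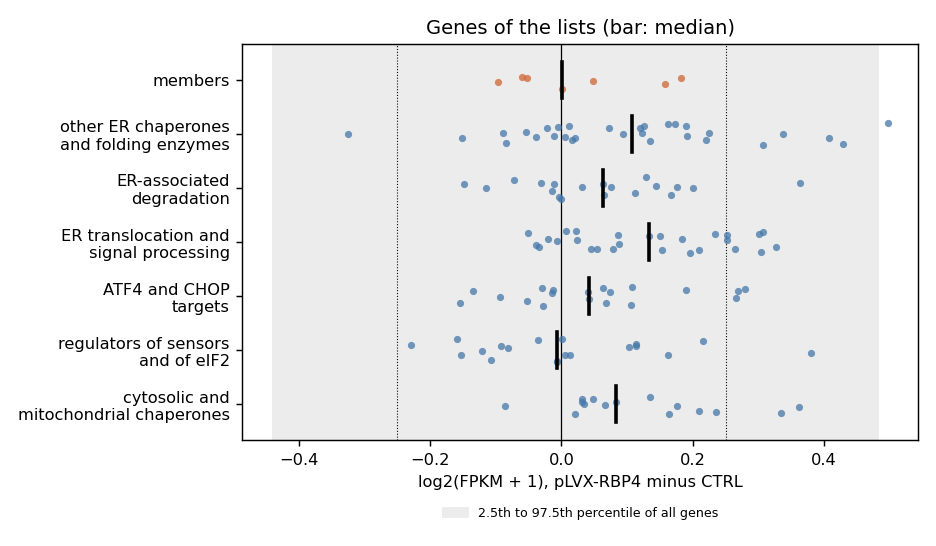
Difference between the groups (pLVX-*RBP4* minus CTRL, log2(FPKM + 1)) for each gene of the members and of 6 lists, with a bar at the median; the shaded range, from -0.44 to 0.48, leaves out 2.5% of all genes on either side, and dotted lines lie 0.25 above and below 0. As deposited, the members and the regulators have medians near 0 and the other lists lie higher. These medians shift with the scaling, and the median over genes with a mean of at least 100 FPKM is 0.084. All points but that of *FKBP7* (0.497) fall inside the shaded range.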

How the data were processed

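Total RNA of porcine GCs was sequenced in 3 pLVX-*RBP4* and 3 CTRL libraries. The authors aligned the filtered paired-end reads to Sscrofa10.2 with TopHat2 and used Cuffdiff of Cufflinks. The versions and the annotation release are not given in the sources used here. The deposited values are FPKM per gene and group, which the authors computed over the libraries of a group. The group columns carry initials, C and R, which were read as CTRL and *RBP4*. The study lists more mapped reads for the pLVX-*RBP4* libraries than for the CTRL libraries. Fragments per gene were not analysed here, so no counting interval was computed.

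Symbols came from a table of Ensembl gene names, which matched 10489 of 17950 identifiers. Differences of log2(FPKM + 1) were computed for genes with a mean of at least 1 FPKM. The limma fit planned for values per library could not be fitted to 1 value per group, so no p-value is given, and a gene was counted as past the limit at 0.25 or 0.5. The members and gene lists were chosen with earlier results of these data known. The rule for named genes was all members, *RBP4* and, from each list, the 3 largest increases, the 3 largest decreases and the 2 highest means. It also picked *KDR* (-0.17), *CD68* (0.15), *TMBIM6* (0.11), *DNAJA1* (0.23) and *HSP90AB1* (0.020), which are not described elsewhere in the text. Genes given beyond this rule were described by function and were chosen after their values were seen, as was the band of at least 100 FPKM. No sequences or coordinates of the build were used, so promoter motifs and protein features were not analysed here.

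The alternatives were pseudocounts of 0.1, 0.01 and none, no filter, a mean of at least 5 FPKM, 4 scalings (median, upper quartile, sum, and sum without the gene of the highest value), list means, and the limit of 0.5. The steps were tested on simulated data. Python 3.11.15, numpy 2.4.6, pandas 2.3.3 and matplotlib 3.10.9 were used.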

Additional observations from a re-analysis of the deposited data

How the results depend on the processing

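With 1 value per gene and group, no replicate could be left out. No paired analysis was possible because the deposited columns hold group values without replicate numbers. A log2 value was counted as moved at a shift of at least 0.1, and a count at more than 1.5 times. Pseudocounts and filters moved no member by that much, and neither did the scalings to a common median, upper quartile or sum. Equalising the sum without the gene of the highest value gave 0.063 for *HSPA5*, 0.039 for *HSP90B1*, -0.071 for *XBP1*, -0.11 for *ATF6*, -0.17 for *CANX*, -0.18 for *CALR* and -0.21 for *EIF2AK3*, with 2 of 7 members higher and a median of -0.11. In the same setting the list medians were -0.0078 for ER chaperones, -0.052 for ER-associated degradation, 0.015 for translocation, -0.12 for the regulators and -0.035 for cytosolic and mitochondrial chaperones. The genes higher were then 7 for degradation, 14 for translocation, 4 for *ATF4* targets, 3 for regulators and 7 for the cytosolic and mitochondrial list. Over all genes it left 685 up and 2634 down by at least 0.25, against 1507 and 1186 as deposited. The common sum gave 2394 up, 684 down and 17 degradation genes higher. A mean of at least 5 FPKM left 669 down, and the limit of 0.5 left 274 up and 228 down. The difference of *RBP4*, 5.47 as reported, was 6.26, 6.37 and 6.38 with pseudocounts of 0.1, 0.01 and none, and 5.35 in the sum without the highest gene. Each of these follows from the construction of the setting. Of the 865 genes below a mean of 0.1 FPKM with values above 0 in both groups, 123 had a ratio between 0.7 and 0.8, the most frequent bin, and the study lists more mapped reads for the pLVX-*RBP4* libraries. No depth correction beyond the authors' scaling was made.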

Other observations

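Proteins reach the ER lumen through the translocon, and 27 of 30 genes listed for translocation and signal sequence processing were found. In total, 22 were higher in pLVX-*RBP4* cells, against 50.2% of all genes and 67.1% of those with a mean of at least 100 FPKM. The median difference was 0.13, beside 0.0014 over all genes and 0.084 in that band. Other scalings gave 14 to 27 genes higher, and 30.1% to 64.9% of all genes. Upward differences of at least 0.25 were found in 7 genes and downward ones in 0, against 12.2% and 9.58% of all genes. In the band of at least 100 FPKM the shares were 17.9% and 2.75%. Other scalings gave 0 to 11 upward on the list and 685 to 2394 over all genes. *SEC62*, which helps short precursors into the translocon, had 55.5 and 69.8 FPKM (0.33), and *SEC11C*, a catalytic subunit of signal peptidase, had 45.7 and 56.7 FPKM (0.31). The signal peptidase subunits *SEC11A*, *SPCS1*, *SPCS2* and *SPCS3* were at 0.25, 0.15, 0.15 and 0.13. In oligosaccharyltransferase, *RPN2* had 261.7 and 323.3 FPKM (0.30), while *RPN1* had 234.7 and 228.4 FPKM (-0.040). In the translocon-associated complex, *SSR4* had 999.8 and 1200.9 FPKM (0.26) and *SSR2* had 738.9 and 784.9 FPKM (0.087). The channel subunits *SEC61A1* and *SEC61A2* differed by -0.035 and -0.052.

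Of 20 chaperones of the cytosol and mitochondria listed, 15 were found, and 14 were higher, or 7 to 14 under other scalings, with a median difference of 0.084. Of all genes, 50.2% were higher, and of those with a mean of at least 100 FPKM, 67.1%. The mitochondrial pair *HSPE1* and *HSPD1* had the largest differences, 0.36 and 0.33, with 176.6 and 227.1 FPKM for *HSPE1* and 89.8 and 113.5 FPKM for *HSPD1*. *BAG3*, a co-chaperone of HSP70, was the only one lower (-0.086). The cytosolic relatives of the ER chaperones differed like them in part. The ratio of *HSPA5* to *HSPA8* was 16.2 and 16.4, and that of *HSP90B1* to *HSP90AA1* was 0.932 and 0.981. How reads were divided between *HSPA8* and its near-identical copies is not known from these values.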
